A study of Mus musculus with 4 samples.

Results

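Asparagine, proline, alanine, glutamine and cysteine can be made inside the cell, and 10 genes for enzymes of these routes and of branched-chain amino acid transamination were followed: *Asns*, *Got1*, *Got2*, *Gpt2*, *Glul*, *Aldh18a1*, *Pycr1*, *Cbs*, *Cth* and *Bcat1*. They were taken by symbol from a table of 18598 genes, and all 10 were listed. The set was put together with the differences between the genotypes in these libraries already known, so the values below describe the enzymes, and no p is given for any of them.

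RNA-seq was made from LSK cells, a sorted bone marrow population (lineage-negative, SCA-1+, c-KIT+) that includes the hematopoietic stem and progenitor cells. All mice were C57BL/6, about 3 months old. The *Bptf* cKO mice were homozygous for a floxed *Bptf* allele and carried *Mx1*-cre, an interferon-responsive cre that acts in many blood and other cells, and, according to the study, the control littermates had the floxed alleles without cre. Mice of both groups had received pIpC, which induces the cre, and cells were taken 10 days after induction. Each genotype had 2 libraries, each from 5 pooled mice, so the spread between libraries is a spread between pools.

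Cells build these amino acids from central carbon metabolism. Asparagine synthetase converts aspartate to asparagine with nitrogen from glutamine. P5C synthase and P5C reductase turn glutamate into proline, and the transsulfuration enzymes move sulfur from homocysteine to cysteine. Several of the genes, *Asns* first among them, are known targets of the amino acid response, in which the transcription factor ATF4 binds C/EBP-ATF response elements.

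The core of that element, TGATGNAA, was searched on both strands in RefSeq promoter windows on GRCm38.p6 that run from 250 bases before to 50 bases after a start site. Windows were given for 9 of the 10 genes, and 3 of these 9 genes held a match, in *Asns*, *Pycr1* and *Got1*. Among all 32851 windows 3.97% held a match, and among the 27025 genes with a window 4.51% did. A match describes the letters of the window and does not show that a factor binds there. They are shown to let the letters around each match be read, each given 5′ to 3′ on the strand of the gene with the match in capitals:
*Asns*, chr6:7693214-7693243, minus strand: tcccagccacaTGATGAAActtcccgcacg
*Pycr1*, chr11:120643803-120643892, minus strand: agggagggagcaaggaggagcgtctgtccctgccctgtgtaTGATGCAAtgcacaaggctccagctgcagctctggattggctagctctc
*Got1*, chr19:43524659-43524748, minus strand: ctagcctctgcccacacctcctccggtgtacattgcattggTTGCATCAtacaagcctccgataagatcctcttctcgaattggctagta

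The match ended 15 bases before the RefSeq start site in *Asns*, where a longer GENCODE transcript already has an exon, 95 bases before it in *Pycr1* and 94 bases before it in *Got1*. In *Got1* the element lay on the opposite strand. The windows of *Aldh18a1*, *Gpt2*, *Got2*, *Cbs* and *Glul* and both windows of *Bcat1* held no match.

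Values are normalized counts, that is, reads on a gene divided by a size factor of the library. A difference is *Bptf* cKO minus control in log2(normalized count + 1), a scale that understates the change of low genes, and its standard error comes from a limma fit to the 14858 genes whose mean reached 10. A gene is called at an adjusted p under 0.05 in that fit, two-sided with Benjamini-Hochberg adjustment. The libraries had between 14091054 and 30134742 reads on listed genes. According to the study, the cre removes an exon of *Bptf* and leaves an unstable, out-of-frame transcript. The counts here are for the whole gene. *Bptf* itself had 5520 and 5850 normalized counts in the control libraries and 3398 and 3320 in the *Bptf* cKO libraries, a log2 difference of -0.76 (standard error 0.090, limma adjusted p = 0.0439), and its adjusted p was 0.0547 with the libraries recentred on their medians, within a range of 1.01e-07 to 0.316 over all alternatives. All 10 LSK and stem cell markers were listed, with summed normalized counts of 54881 to 61622 in control and 44999 to 47058 in *Bptf* cKO libraries, and 6 of the 9 T and NK cell markers were not listed.

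Both replicate 2 libraries stood apart from the replicate 1 libraries. Their 7 listed pluripotency genes summed to 933 normalized counts in control and 1182 in *Bptf* cKO, against 3.88 and 5.85 in the replicate 1 libraries, and *Xist* was at 15675 and 11843 against 0.775 and 3.25. The Y-linked gene *Ddx3y* was at 456 and 769 against 1837 and 1835. The other listed Y-linked genes were also lower in both replicate 2 libraries. The difference in the replicate 1 libraries alone is therefore given for each enzyme. The summed erythroid markers, 10 of 10 listed, moved with genotype, from 2531 and 3477 normalized counts in control to 522 and 673 in *Bptf* cKO libraries, with *Hba-a2* at 0 in replicate 1 of *Bptf* cKO. The granulocyte and monocyte markers, 12 of 12 listed, summed to 72824 and 15959 normalized counts in control and 58799 and 50711 in *Bptf* cKO libraries. Control replicate 2 was thus the lowest. Among them *Ctsg* was at 2652 and 674 in control and 10040 and 9445 in *Bptf* cKO libraries. *Lyz2* went the other way, from 6123 and 3229 in control to 2955 and 2815 in *Bptf* cKO libraries. In the other markers of this list the groups overlapped. Without control replicate 2 the differences of the 10 enzymes ran from -0.32 for *Glul* to 3.77 for *Cth*. The part of these cells and of the pluripotency transcripts in the enzyme values was not tested. In sorted bulk cells, more cells of a type and more RNA per cell cannot be told apart.

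Of the 10 enzymes, 8 had both *Bptf* cKO libraries above both control libraries, where 23.2% of all tested genes did, and none had both below, where 23.8% did. The fit called 3 of the 10 higher, *Asns*, *Pycr1* and *Bcat1*, against 0.37% of all tested genes, and 0 lower, where 0.37% were called lower. At an unadjusted p under 0.05 in limma there were 7 of the 10, all higher, where 15.7% of all tested genes were below that p in either direction. EdgeR on the recovered reads called the same 3 against 0.33% of all genes higher. Of the 10, 0 were called lower in edgeR and in DESeq2. Those tests called 45 and 490 of the 14858 tested genes lower. Because the genes were chosen on this contrast, nothing is read from these counts. The median difference of the 10 was 1.60, and that of all tested genes was 0.0010. The count of called enzymes was 7 with DESeq2 on the recovered reads, which called 2.14% of all genes higher. In the replicate 1 libraries alone, 5 of the 10 were past a fold of 2 upward, where 2.81% of all tested genes were.

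**Figure D1:**
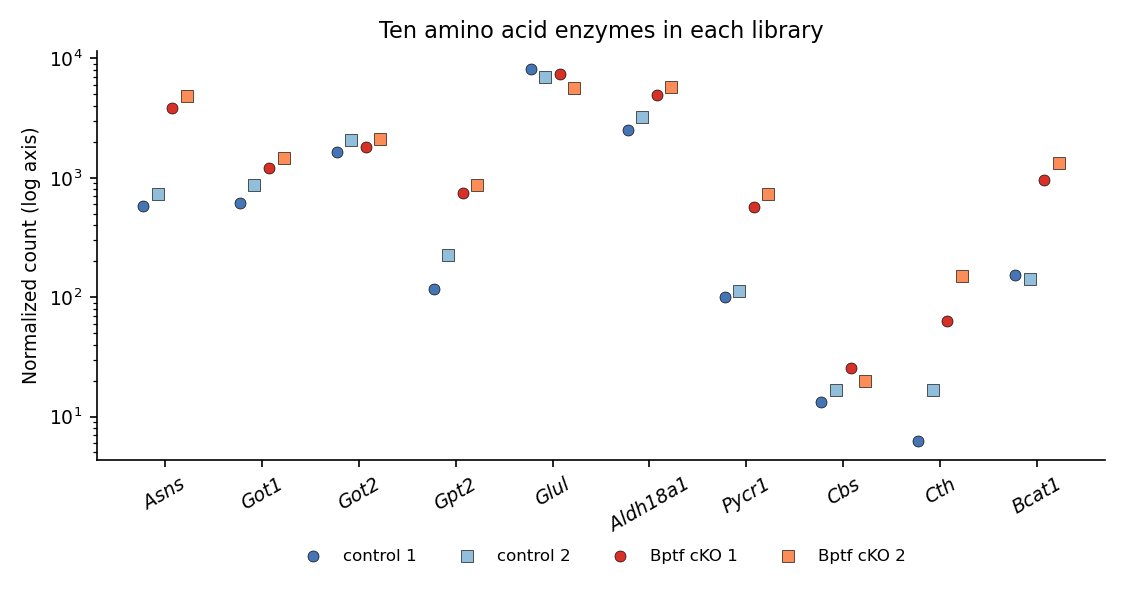
Normalized count (log axis) of each of the 10 enzyme genes in the 4 libraries, blue for control and red or orange for *Bptf* cKO, with circles for replicate 1 and squares for replicate 2. The *Bptf* cKO points of *Asns*, *Gpt2*, *Pycr1*, *Cth* and *Bcat1* stand well above the control points, while those of *Got2* and *Glul* are mixed with them.

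*Asns*, which encodes asparagine synthetase, spans positions 7675169 to 7693254 of chromosome 6 (GENCODE vM21 on GRCm38, the build of all gene positions here). It had 582 and 737 normalized counts in the control libraries and 3846 and 4848 in the *Bptf* cKO libraries, replicate 1 first, as in all pairs of values here. The groups were far apart, and replicate 2 was the higher library in both. The means were 660 ± 110 (SD, n = 2 libraries) and 4347 ± 709 (SD, n = 2), a ratio of 6.59 and a log2 difference of 2.72 (standard error 0.17). Among the 14858 tested genes *Asns* ranked 80 by size of rise, and its difference was also 2.72 in the replicate 1 libraries. At least 532 reads per library lay behind these values. *Asnsd1*, a gene named for the synthetase domain it shares with *Asns*, had 266 and 280 normalized counts in control and 289 and 306 in *Bptf* cKO libraries, a log2 difference of 0.12 with a 95% interval of -0.28 to 0.53.

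Aspartate, the substrate of asparagine synthetase, is formed by aspartate aminotransferases in the cytosol (*Got1*) and in mitochondria (*Got2*). *Got1*, on chromosome 19 from 43499752 to 43524605, had 612 and 877 normalized counts in control and 1211 and 1479 in *Bptf* cKO libraries. The groups did not overlap, although the spread between the libraries of a genotype was wide, with means of 745 ± 187 and 1345 ± 189 (SD, n = 2 each) and a log2 difference of 0.87 (standard error 0.21). The main limma fit did not call *Got1*, and DESeq2 did. *Got2*, on chromosome 8 from 95864134 to 95888547, had 1649 and 2093 normalized counts in control and 1799 and 2126 in *Bptf* cKO libraries, so the groups overlapped. Its log2 difference of 0.074 was smaller than its standard error of 0.16, and it was 0.98 for *Got1* and 0.13 for *Got2* in the replicate 1 libraries.

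*Gpt2* encodes the mitochondrial alanine aminotransferase, which makes alanine from pyruvate, and lies on chromosome 8 from 85492576 to 85527560. It had 117 and 227 normalized counts in control and 746 and 871 in *Bptf* cKO libraries. Both *Bptf* cKO libraries were above both control libraries, and the control libraries differed more from each other, in proportion, than the *Bptf* cKO libraries did. The ratio of the means was 4.69 and the log2 difference 2.30 (standard error 0.33), with 2.66 in the replicate 1 libraries. The main limma fit did not call *Gpt2*, and DESeq2 did. Its difference was 1.82 without control replicate 1 and 2.77 without control replicate 2. *Gpt*, the cytosolic counterpart, had 151 and 155 normalized counts in control and 138 and 152 in *Bptf* cKO libraries, a log2 difference of -0.080 with a 95% interval of -0.60 to 0.44.

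*Glul*, the glutamine synthetase gene on chromosome 1 from 153899944 to 153909723, had the highest control level of the 10 per kilobase of exon. It had 8109 and 6960 normalized counts in control and 7456 and 5649 in *Bptf* cKO libraries. The groups overlapped, and the log2 difference was -0.21 (standard error 0.16). In the replicate 1 libraries it was -0.12.

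Of the proline enzymes, *Aldh18a1* encodes P5C synthase, the entry step from glutamate, and lies on chromosome 19 from 40550257 to 40588463. It had 2508 and 3250 normalized counts in control and 4932 and 5774 in *Bptf* cKO libraries. The groups did not overlap, with means of 2879 ± 525 and 5353 ± 595 (SD, n = 2 each), a ratio of 1.86 and a log2 difference of 0.90 (standard error 0.16). The main limma fit did not call it, and DESeq2 did. Its difference in the replicate 1 libraries was 0.98.

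*Pycr1*, on chromosome 11 from 120635712 to 120643769, encodes a mitochondrial P5C reductase, the last step of proline synthesis. It had 100 and 114 normalized counts in control and 571 and 731 in *Bptf* cKO libraries. The control libraries lay close together, and both *Bptf* cKO libraries lay far above them. The means were 107 ± 9.66 and 651 ± 113 (SD, n = 2 each), a ratio of 6.10 and a log2 difference of 2.59 (standard error 0.20), with 2.50 in the replicate 1 libraries. *Pycrl*, the cytosolic reductase, had 956 and 919 normalized counts in control and 999 and 995 in *Bptf* cKO libraries, with a 95% interval of the log2 difference from -0.18 to 0.36. *Prodh*, the first enzyme of proline breakdown, had 1154 and 1035 normalized counts in control and 1375 and 1305 in *Bptf* cKO libraries, a log2 difference of 0.29 (limma adjusted p = 0.308).

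The transsulfuration genes had the lowest levels of the set per kilobase of exon. *Cth*, which encodes cystathionine gamma-lyase and lies on chromosome 3 from 157894248 to 157925077, had 6.20 and 16.6 normalized counts in control and 63.0 and 150 in *Bptf* cKO libraries. The groups did not overlap, but the libraries of a genotype differed by more than in any other gene of the set relative to their means. The ratio of the means was 9.31 and the log2 difference 3.12, with the largest standard error of the 10 enzymes, 0.66. The difference was 2.48 without control replicate 1, 3.77 without control replicate 2, 3.74 without *Bptf* cKO replicate 1 and 2.51 without *Bptf* cKO replicate 2, and 2.38 with a pseudocount of 10. Just 8 and 12 reads lay behind the control values, against 97 and 106 in *Bptf* cKO. The main limma fit did not call *Cth*, and DESeq2 did. The difference was 3.15 in the replicate 1 libraries.

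*Cbs* encodes cystathionine beta-synthase, the step before *Cth*, and lies on chromosome 17 from 31608894 to 31637238. It had 13.2 and 16.6 normalized counts in control and 25.3 and 19.8 in *Bptf* cKO libraries, from 12 to 39 reads per library. Its log2 difference of 0.56 had a standard error of 0.47, so a change in *Cbs* was not detectable at this depth. It was 0.89 in the replicate 1 libraries.

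*Bcat1* encodes the cytosolic branched-chain aminotransferase, which passes nitrogen between leucine, isoleucine or valine and glutamate, and lies on chromosome 6 from 144993835 to 145076184. It had 154 and 143 normalized counts in control and 968 and 1340 in *Bptf* cKO libraries. Both control libraries were low and close together, and both *Bptf* cKO libraries were high. The means were 149 ± 8.13 and 1154 ± 264 (SD, n = 2 each), a ratio of 7.77 and a log2 difference of 2.93 (standard error 0.20), with 2.64 in the replicate 1 libraries. *Bcat2*, its mitochondrial counterpart, had 1308 and 1401 normalized counts in control and 1235 and 1458 in *Bptf* cKO libraries, a log2 difference of -0.013 with a 95% interval of -0.33 to 0.31.

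**Figure D2:**
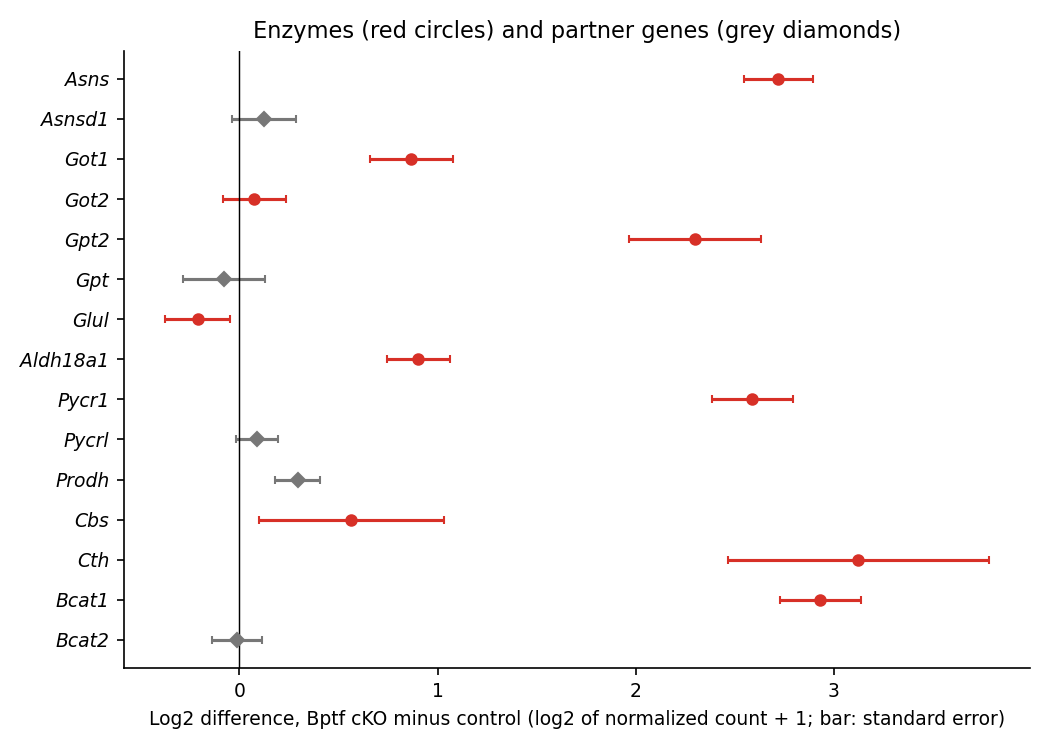
Log2 difference of *Bptf* cKO minus control, with its standard error from limma, for the 10 enzymes (red circles) and for genes that share a reaction or sequence with them (grey diamonds). *Asns*, *Gpt2*, *Pycr1*, *Cth* and *Bcat1* lie between 2.30 and 3.12, and all grey diamonds lie between -0.080 and 0.29.

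Per kilobase of annotated exon, the control levels of the 10 enzymes ran from 1.99 normalized counts for *Cbs* and 4.09 for *Cth* to 2267 for *Glul*. *Bcat1*, *Pycr1* and *Gpt2* had 15.9, 27.1 and 30.5 in control, in an order in which *Pycr1* and *Gpt2* did not differ beyond the spread between libraries. *Asns*, *Got1* and *Got2* followed at 241, 293 and 388, with overlapping library values between *Asns* and *Got1* and between *Got1* and *Got2*, and *Aldh18a1* had 707. In *Bptf* cKO libraries *Asns* stood at 1589 normalized counts per kilobase, next to *Aldh18a1* at 1314 and *Glul* at 1972, and *Cbs* was again the lowest of the 10, at 3.01. The library values of *Asns* overlapped there with those of *Aldh18a1* and with those of *Glul*. Exon length was taken over all transcripts of a gene, so a level per kilobase is lower than it should be where few of the annotated exons are used.

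Within isoenzyme groups, shares of normalized counts per kilobase also differed between the genotypes. *Bcat1* made up 4.70% and 4.09% of the total of *Bcat1* and *Bcat2* in control and 24.7% and 27.8% in *Bptf* cKO libraries, so *Bcat2* remained the larger in every library. *Gpt2* went from 28.8% and 43.3% of the *Gpt2* and *Gpt* total in control to 73.8% and 74.9% in *Bptf* cKO libraries, and *Got1* from 41.4% and 44.3% of the *Got1* and *Got2* total to 56.1% and 56.9%. The gene with the larger share in both of these groups differed between control and *Bptf* cKO libraries on this scale. Without division by length, *Got2* had more normalized counts than *Got1* in every library, and *Gpt2* had more than *Gpt* in replicate 2 of control already. The shares do not depend on the size factors.

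**Figure D3:**
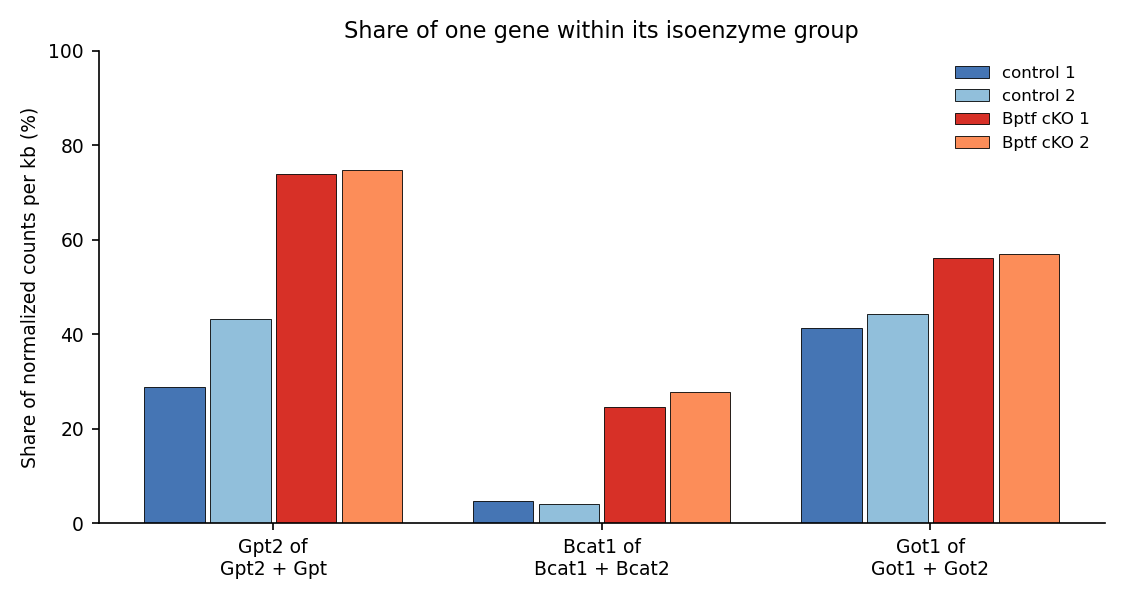
Share of normalized counts per kilobase of exon (%) that the first gene takes of its isoenzyme group, with 1 bar per library, blue for control and red or orange for *Bptf* cKO. *Gpt2* reached 73.8% and 74.9% of its group and *Got1* 56.1% and 56.9% in *Bptf* cKO libraries, while *Bcat1* stayed the smaller part.

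To see the pathways around these enzymes, 101 further genes of asparagine and aspartate, proline and ornithine, alanine and glutamine, methionine and glutathione, and branched-chain amino acid metabolism were listed, of which 85 were tested. Limma called 0 of the 85 higher and 0 lower, where 0.37% of all tested genes were called in each direction. At an unadjusted p under 0.05 there were 17, or 20% of them, against 15.7% of all tested genes. The edgeR test on the recovered reads also called 0, where it called 49 of all tested genes higher and 45 lower. DESeq2 called 1 higher (*Srm*) and 2 lower (*Asrgl1* and *Ivd*), where it called 318 of all 14858 tested genes higher and 490 lower. Their median log2 difference was -0.031, against 0.0010 for all tested genes, and it was 0.021 with the libraries recentred on their medians, where that of all genes was 0.053.

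*Srm*, the spermidine synthase gene, had 2733 and 2438 normalized counts in control and 3786 and 3502 in *Bptf* cKO libraries, a log2 difference of 0.50 (standard error 0.11, limma adjusted p = 0.128). *Asrgl1*, which encodes an asparaginase and so works against *Asns*, had 1632 and 1708 in control and 1167 and 1254 in *Bptf* cKO libraries, a log2 difference of -0.46 (limma adjusted p = 0.134). Neither passed the threshold, although the groups did not overlap in either gene. *Ivd*, which encodes a dehydrogenase of leucine breakdown, had 2148 and 2134 in control and 1471 and 1594 in *Bptf* cKO libraries, a log2 difference of -0.48 (limma adjusted p = 0.118). It belongs to the branched-chain breakdown list, whose 23 tested genes had a median of -0.13, against 0.0010 for all tested genes. The list median was -0.080 with recentring or with quantile normalization, where the medians of all tested genes were 0.053 and 0.017. In that list 13 genes had both *Bptf* cKO libraries below both control libraries and 1 had both above, where 23.8% and 23.2% of all tested genes did.

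**Figure D4:**
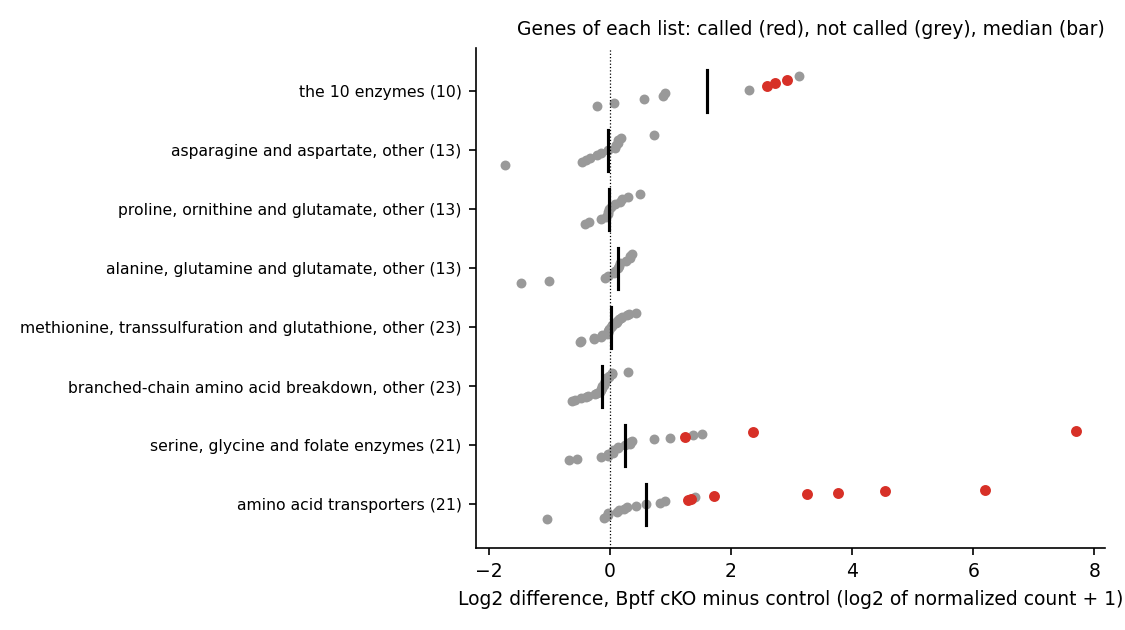
Log2 difference of *Bptf* cKO minus control for the tested genes of each list, 1 point per gene, red where limma called the gene and grey where it did not, with a bar at the median. The 85 genes of the 5 lists around the enzymes hold no red point, where 0.37% of all tested genes were called in each direction. Red points mark 3 serine, glycine and folate enzymes and 7 amino acid transporters. All lists were chosen with earlier results of these data known.

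Beside them stand the serine, glycine and folate enzymes and the amino acid transporters, which feed the same amino acid pools. Limma called 3 of 21 tested serine, glycine and folate enzymes (*Shmt2*, *Mthfd2* and *Aldh1l2*) and 7 of 21 tested transporters (among them *Slc7a3*, *Slc7a11*, *Slc6a9*, *Slc1a4*, *Slc7a5* and *Slc7a1*) higher, and 0 lower in both, where 0.37% of all tested genes were called in each direction. At an unadjusted p under 0.05 there were 10 and 13 of these genes, against 15.7% of all tested genes. DESeq2, which called 2.14% of all genes higher, called 6 and 11 higher and 0 and 1 lower, and edgeR called 3 and 7 higher and 0 lower. Their medians were 0.24 and 0.60, against 1.60 for the 10 enzymes. No test of the difference between these groups was made. Both lists were chosen with earlier results of these data known, so nothing is read from their counts or from the p of *Slc7a11*. *Slc7a11*, the subunit that imports cystine and so supplies cysteine without transsulfuration, had 15.5 and 19.4 normalized counts in control and 385 and 467 in *Bptf* cKO libraries, a log2 difference of 4.53 (limma adjusted p = 0.0118).

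Over the 4 libraries, the genes most like *Asns* were found by the root mean square difference of the log2 values, each gene centred on its own mean, among 10814 other genes with a mean of at least 100. *Pycr1* was the nearest at 0.086, followed by *Angptl6* at 0.11, *Perp* at 0.15, *Mthfd2* at 0.20 and *Bcat1* at 0.20. *Gpt2* ranked 11, *Aldh18a1* 124 and *Got1* 135, while *Got2* ranked 3588 and *Glul* 8663. *Mthfd2*, a mitochondrial folate enzyme, had 598 and 815 normalized counts in control and 3447 and 3746 in *Bptf* cKO libraries. The likeness rests on 4 libraries of 2 genotypes, so it reflects mainly the size of the difference.

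Overlapping genes in GENCODE vM21 hold few reads where they are listed. *Teddm2*, on the opposite strand of *Glul*, had at most 46.5 normalized counts in a library, and *Gm45760*, opposite *Got2*, had at most 4.65. The opposite-strand transcripts *Gm26666* and *Gm15687* of *Bcat1* are not listed in the table, and whether reads were counted by strand is not given in the sources used here.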

How the data were processed

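RNA was extracted from sorted LSK cells and sequenced in 4 libraries, 2 per genotype. Per the labels, the authors' processing used HISAT2, featureCounts and DESeq2 with the builds GRCm38 and mm10, with versions and settings not given in the sources used here. The deposited values are a signal, gene counts that the authors divided by a size factor per library, so depth is already scaled out of them. In each library the lowest value above 0 stood for 1 read, and dividing by it gave whole reads for 100% of the values (tolerance 0.01). The smallest sum of reads of a listed gene was 11. The authors' own fold changes, errors, test statistics, p-values and mean were not used.

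Genes with a mean of at least 10 (14858) were fitted as log2(value + 1) by limma 3.58.1 (R 4.3.3). The model held genotype alone, the variance prior followed mean expression, p-values were two-sided and adjusted by Benjamini-Hochberg, and a count model was not the main test because the values are not raw counts. EdgeR 4.0.16 and DESeq2 1.42.0 were run on the recovered reads as alternatives. The main limma fit, limma with the replicate number as a block, edgeR without that block and DESeq2 were tested on simulated data. That simulation held no difference between replicate numbers, and the other settings were not tested on it. Further settings were a pseudocount of 0.5 or of 10, no filter or a mean of at least 50, recentring, quantile normalization, no trend, an adjusted p under 0.01, the replicate number as a block, each library left out, and, chosen after seeing the data, the replicate 1 libraries alone. With 2 libraries against 2, an exact permutation test cannot give a p below 0.333.

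Coordinates and exon lengths came from GENCODE vM21, which matched 98.3% of the listed symbols, and promoter windows from RefSeq on GRCm38.p6. The enzymes and all gene lists were chosen with earlier results of these data known. The named genes are the 10 enzymes, genes of the other lists that were called (at most 6 a list), genes that share a reaction or sequence with an enzyme, the 5 genes most like *Asns*, and *Bptf*. The results of some genes are not reported here. *Srm*, *Asrgl1*, *Ivd*, *Ctsg*, *Lyz2*, *Ddx3y* and the overlapping genes were named after their values were seen. Summaries and figures were made with Python 3.11.15, numpy 2.4.6, pandas 2.3.3 and matplotlib 3.10.9.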

Additional observations from a re-analysis of the deposited data

How the results depend on the processing

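The counts of called genes changed with the model of the spread and with the libraries used, while 9 of the 10 enzymes kept the sign of their difference under every alternative run, all but *Got2*. Limma called 55 genes higher and 55 lower, with 3 enzymes higher. Without the mean-variance trend it called 2 higher and 0 lower and 0 enzymes, and at an adjusted p under 0.01 it called 5 higher and 2 lower and 0 enzymes. DESeq2 on the recovered reads called 318 higher and 490 lower, 7 enzymes, and 1 higher and 2 lower of the other pathway genes. Leaving out each library in turn gave 1 to 76 genes higher, 0 to 41 lower and 0 to 4 enzymes, with the lone library of a genotype assumed to vary like the others, and 0 enzymes without either of the *Bptf* cKO libraries. Same-numbered libraries deviated together (correlation 0.452 over 14858 genes), but nothing in the labels says what a number stands for. With the replicate block limma called 896 higher and 1242 lower, 7 enzymes, and 5 higher and 9 lower of the other pathway genes, and edgeR called 891 higher and 1229 lower, 7 enzymes, and 5 higher and 8 lower. The 7 enzymes were *Asns*, *Aldh18a1*, *Pycr1*, *Gpt2*, *Got1*, *Cth* and *Bcat1* in all 3 of these fits. The cause of these shifts was not tested. Of 159 values of the 10 enzymes under alternatives, 2 moved by more than the spread between replicates, *Cbs* to 0.89 and *Bcat1* to 2.64 in the replicate 1 libraries alone, and 0 of the called ones changed sign. Many of the 159 could not have moved. The filters, the fit without trend and the limma block leave a difference as it is. Leaving out 1 library cannot shift it by more than that spread. The count of moved values is therefore no measure of stability. *Got2*, which was not called, ran from -0.098 to 0.25. Counts were lowest for *Cbs*, at 12 to 39 reads per library, and for *Cth* in control, at 8 and 12.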

Other observations

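The search for TGATGNAA was extended, after the values had been seen, to the promoters of all tested genes. Of the 55 genes called higher in *Bptf* cKO LSK cells, 38 had a promoter window and 12 of these held a match (31.6%), and of the genes called lower 46 had a window and 3 held a match (6.52%). Among the 10378 tested genes with a window 2.76% held a match, and among the 64 tested genes of the 5 lists around the enzymes that had a window 1 did. The 38 genes include *Asns*, *Pycr1* and *Bcat1*, which were chosen on this contrast. A match does not show that a factor binds there. No test of these shares was made, and nothing is read from them.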
